A study of Mus musculus with 4 samples.

Results

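St18, Myt1 and Myt1l, the Myt1 family of zinc finger transcription factors, were followed across single cells of the mouse medial ganglionic eminence (MGE), the zone of the ventral embryonic forebrain where many GABAergic neurons are born. They are 3 of the 32285 genes in the count matrices and were taken by gene symbol. Their levels were described across the 19032 cells that held at least 3000 unique molecular identifiers (UMIs, counted RNA molecules) and at most 10% mitochondrial UMIs. MGE tissue came from e14.5 embryos of a mixed C57/BL6 ICR strain, whose parents were heterozygous for a germline deletion of St18 exons. Of the 4 libraries, 2 are labelled St18 (-/-), called null here, and 2 are labelled wildtype, called WT. Each came from tissue pooled over embryos of a genotype, so the libraries and not the embryos are the replicates. Per the study's methods the deletion shifts the reading frame and a transcript persists, so an St18 UMI is only a partial check of the genotype.

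The proteins of this family bind DNA through clustered zinc fingers of the CCHHC type and recruit corepressor complexes. Myt1, first described as a factor binding a myelin gene, acts in neurogenesis, where it can free cells from the lateral inhibition exerted through Notch. Myt1l is expressed in neurons broadly, represses genes of other cell types, and is used together with other factors to convert fibroblasts into neurons, whereas St18, also called Myt3, is known from pancreatic islets and from the MGE lineage.

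In the GENCODE M21 annotation (GRCm38) St18 (ENSMUSG00000033740) lies on chromosome 1 from 6487231 to 6860940, Myt1 (ENSMUSG00000010505) on chromosome 2 from 181763332 to 181827797, and Myt1l (ENSMUSG00000061911) on chromosome 12 from 29528384 to 29923213, all protein-coding and on the plus strand. Myt1l overlaps 2 annotated genes of the opposite strand, Gm20208 and C630031E19Rik, and whether its UMIs were counted by strand is not given in the sources used here. RefSeq promoter windows of 300 bases (GRCm38.p6) were matched for 2 of the 3 genes, with 3 starts for Myt1 and 5 for Myt1l. They were searched on both strands for AAAGTTT, the site known for this family, for CAGCTG, an E-box that proneural factors can bind, and for GTGGGAA, a core site of the Notch effector Rbpj. The window shown for Myt1 was the only one of the 8 that held AAAGTTT, which 4.74% of all 32851 promoter windows held, and the window for Myt1l the only one with CAGCTG, held by 16.3%. GTGGGAA, held by 6.38%, was found in 1 other window of Myt1l (chr12:29534972-29535271), which is not shown. The other 2 are shown because the genes' levels along neurogenesis are the subject here, with the searched letters in capitals.
Myt1, chr2:181796057-181796356, plus strand: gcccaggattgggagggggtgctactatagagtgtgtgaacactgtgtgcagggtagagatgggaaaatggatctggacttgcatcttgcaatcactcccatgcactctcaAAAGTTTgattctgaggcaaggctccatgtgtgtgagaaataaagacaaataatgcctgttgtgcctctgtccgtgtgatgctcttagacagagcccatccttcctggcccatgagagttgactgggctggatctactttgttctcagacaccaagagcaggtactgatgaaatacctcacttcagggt
Myt1l, chr12:29534655-29534954, plus strand: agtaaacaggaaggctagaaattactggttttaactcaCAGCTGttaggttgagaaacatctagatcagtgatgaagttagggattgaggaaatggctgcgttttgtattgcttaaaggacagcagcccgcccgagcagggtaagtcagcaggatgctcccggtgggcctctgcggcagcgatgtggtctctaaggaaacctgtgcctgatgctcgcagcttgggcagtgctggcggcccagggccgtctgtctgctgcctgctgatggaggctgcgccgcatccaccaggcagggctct
A match is a description of these letters, and the counts per gene do not tell from which start an RNA came.

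Null replicate 1 gave 6631 cells, null replicate 2 gave 3878, WT replicate 1 gave 4512 and WT replicate 2 gave 4011, the order of all lists of 4 values here, with a median of 6186 to 9352 UMIs. Pairs of libraries shared 4 to 11 cell barcodes, and 1.87% of the cells carried markers of non-neural types. St18 went against the label in the library labelled null replicate 2. Whether all the tissue pooled into it carried the deletion was not tested, it enters each null against WT value over all 4 libraries, and the values of the family without it stand beside those. That library had the highest median of UMIs (9352), and 489 of its 4367 barcodes with at least 3000 UMIs were over the mitochondrial limit. In null replicate 1, WT replicate 1 and WT replicate 2 these were 185 of 6816, 67 of 4579 and 86 of 4097. The part of these differences in its levels was not tested. Cells were ordered by a score, the log2 of scaled Stmn2, Gap43 and Mapt (cytoskeletal and growth cone genes of neurons) minus that of Hes1, Hes5 and Nes (genes of neural progenitors), and divided into 9 bins of equal size, 3 to each of 3 segments called progenitor, middle and neuron. Markers that did not enter the score moved with it between its ends, though not all of them by its middle. Fabp7, a lipid-binding protein of radial glia, fell from a mean of 1893 CPM (UMIs per 1000000 UMIs) in bin 1 to 70.2 in bin 9. Dcx, a microtubule protein of migrating neurons, went from 57.1 to 793 CPM. Sox2, another progenitor marker outside the score, stood at 644 CPM in bin 1, 636 in bin 5 and 186 in bin 9.

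St18 was low at both ends of the ordering and highest in its middle. In bin 1 it stood at 5.14, 13.6, 6.95 and 5.57 CPM in the 4 libraries, and in bin 9 at 4.86, 10.4, 7.27 and 11.3 CPM. Its highest bin was bin 4 in null replicate 1, at 34.2 CPM, and bin 5 in the others, at 99.0, 65.7 and 82.3 CPM. The peak was thus 6.64 to 14.8 times the first bin and 7.02 to 9.48 times the last in the same library, and the order of the bins was alike in libraries whose levels differed. From bin 1 to bin 2 St18 was higher in 4 of 4 libraries with no overlap of their ranges, bins 3 to 7 overlapped with their neighbours, and each step from bin 5 to bin 9 went down in 4 of 4 libraries.

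Myt1 reached a broad plateau and then came down only in part. Bin 1 held 13.8, 20.7, 13.9 and 10.2 CPM, the highest bin 109, 113, 90.8 and 83.1 CPM, and bin 9 56.7, 74.6, 53.1 and 47.5 CPM. The highest bin was bin 6, 7, 5 and 6, and the means of bins 5 to 7 lay between 92.4 and 94.3 CPM with ranges that overlapped. Unlike St18, Myt1 was still 3.61 to 4.65 times as high in the last bin as in the first.

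Myt1l, in contrast, went up at every step in every library. It rose from 14.1, 13.1, 13.9 and 10.2 CPM in bin 1 to 412, 525, 367 and 398 CPM in bin 9, which is 26.4 to 39.9 times. Ranges of neighbouring bins did not overlap over the first 2 steps and overlapped from bin 3 on, although the next bin was higher in 4 of 4 libraries at each of the 8 steps. Null replicate 2 was the highest library for Myt1l from bin 2 to bin 9.

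**Figure D1:**
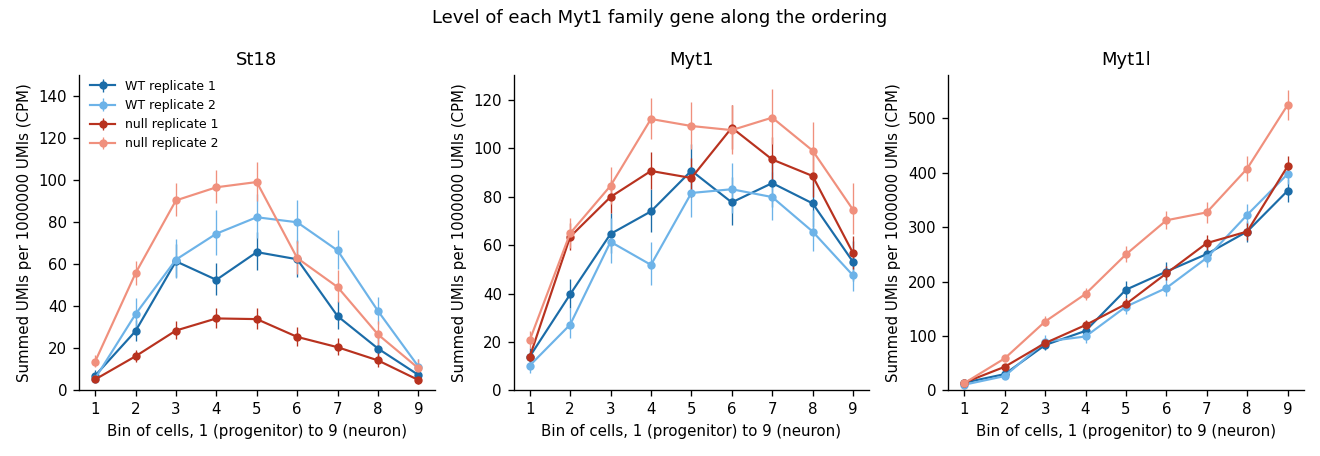
Level of St18, Myt1 and Myt1l (summed UMIs per 1000000 UMIs, CPM) in 9 bins of cells from progenitor to neuron, as a line for each of the 4 libraries with exact Poisson 95% intervals. St18 peaks in bin 4 or 5 and returns to 4.86 to 11.3 CPM, Myt1 stays at 47.5 CPM or more in bin 9, and Myt1l is highest in bin 9 at 367 to 525 CPM.

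The same patterns were seen in shares of cells, after each cell had been thinned to 3000 UMIs. St18 had a UMI in 2.26% ± 1.14 of the cells of bin 1, 14.7% ± 4.84 in bin 4, 14.6% ± 3.94 in bin 5 and 2.53% ± 0.840 in bin 9 (SD, n = 4). Myt1 went from 4.95% ± 0.902 in bin 1 to 24.9% ± 3.63 in bin 7 and 15.3% ± 2.01 in bin 9, and Myt1l from 4.08% ± 1.26 in bin 1 to 63.1% ± 3.71 in bin 9. Without thinning, St18 had a UMI in 18.7% to 35.6% of the cells of bin 4 and 18.8% to 32.6% in bin 5, Myt1 in 30.7% to 60.1% in bin 4 and 36% to 58.4% in bin 7, and Myt1l in 82.1% to 89.3% in bin 9. Free RNA sets a floor below these shares. Erythroid cells, which should lack all 3 genes, had St18 in 2 of 180 thinned cells (1.11%, exact 95% interval 0.135 to 3.96), Myt1 in 2.22% and Myt1l in 3.33%, at a median of 11429.5 UMIs before thinning, and microglia had them in 1 (1.33%), 1 and 4 of 75. Droplets under 100 UMIs held 13.8 to 32.6 CPM of St18, 46.0 to 54.5 CPM of Myt1 and 105 to 131 CPM of Myt1l, and intervals throughout cover counting error only. For St18 at both ends of the ordering these measures of background differed. Its levels there lay below those of the droplets. In bin 1 of null replicate 2, however, the 13.6 CPM (interval 10.96 to 16.7) lay above the erythroid cells of that library. These held no St18 UMI (upper bound 7.57 CPM). Myt1 (10.2 to 20.7 CPM) and Myt1l (10.2 to 14.1 CPM) in bin 1 lay below their droplets too. Pooled erythroid cells held 5.42 CPM of Myt1 and 12.7 CPM of Myt1l. Myt1 in bin 1 lay above erythroid cells, with no overlap of intervals, in null replicate 2 (20.7 against 2.05 CPM) and WT replicate 1 (13.9 against 1.82 CPM). In null replicate 1 and WT replicate 2 the intervals for Myt1 overlapped. By library the erythroid cells held 7.65, 4.10, 5.46 and 29.1 CPM of Myt1l, so the pooled value rests largely on WT replicate 2. Their intervals overlapped with those of bin 1 in all libraries but WT replicate 2, where bin 1 was lower (10.2 CPM). Erythroid cells held 4, 2 and 3 Myt1l UMIs in null replicate 1, null replicate 2 and WT replicate 1, where bin 1 stood higher. Such counts are too few to tell whether Myt1l in bin 1 exceeded background. Ratios to bin 1 thus rest on values near the floor.

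Whether these changes exceeded the spread between libraries was tested on counts summed per library and segment (edgeR quasi-likelihood test with library as a block, Benjamini-Hochberg adjustment over 14229 genes). Of the 3 genes, 3 passed the threshold in each contrast, against 66.7% of all genes between the middle and progenitor segment, 57.1% between the neuron and middle segment and 78.4% between the neuron and progenitor segment, so passing alone sets them apart from few genes. The segments held 15.0, 51.3, 29.8 and 33.1 CPM of St18 at the progenitor end, 31.4, 87.8, 59.8 and 79 CPM in the middle and 13.1, 30.3, 20.7 and 35.8 CPM at the neuron end. St18 was highest in the middle segment in each library. It rose by 1.01 (log2, SE 0.09, adjusted p = 5.95e-08) into the middle segment and fell by 1.38 (log2, SE 0.10, adjusted p = 6.68e-09) from there to the neuron segment.

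Myt1 was at 48.2, 55.3, 37.2 and 31.7 CPM in the progenitor segment, 95.2, 110, 80.6 and 73.0 CPM in the middle and 79.8, 97.0, 71.8 and 62.8 CPM in the neuron segment. It rose by 1.08 into the middle segment (SE 0.05, adjusted p = 2.41e-11) and fell by 0.24 after it (SE 0.04, adjusted p = 0.000299), both on the log2 scale. Myt1l was at 43.2, 63.0, 39.2 and 40.1 CPM, then 161, 237, 167 and 149 CPM, then 327, 412, 304 and 329 CPM, with no overlap between segments. Its log2 fold changes were 1.97 (SE 0.05, adjusted p = 3.08e-13) and 0.92 (SE 0.05, adjusted p = 2.66e-10) for the successive steps.

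Between the ends of the ordering, the neuron segment held 7.41 times as much Myt1l as the progenitor segment and 1.79 times as much Myt1, while St18 was lower, at -0.37 on the log2 scale (SE 0.10, adjusted p = 0.00334). The direction for St18 between the ends depended on the ordering. With 8 other markers in the score (Sox2, Vim, Fabp7 and Slc1a3 against Dcx, Tubb3, Map2 and Snap25) it was 0.27 (adjusted p = 0.0102), whereas its rise into and fall from the middle segment kept their sign and passed in all 15 alternatives.

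The genes most alike to each family member over the 36 sums of 4 libraries and 9 bins were sought among 6470 genes with a mean of at least 20 CPM, by Pearson's r of log2(CPM + 5). These points share libraries and the ordering, so r is given as a description. For St18 they were Thap2 (r = 0.91), Nudt4 (0.89), Top1 (0.86), Prox1 (0.86) and Zswim5 (0.86). Prox1, a homeodomain factor of neural differentiation and of a class of GABAergic neurons, went from 23.6 CPM ± 6.42 in bin 1 to 119 ± 24.3 in bin 5 and 16.9 ± 7.14 in bin 9 (SD, n = 4). Thap2, whose r was highest, moved less, between means of 72.6 and 119 CPM, since r does not depend on the size of a change. The sums were not centred within libraries, so r also carries differences in level between libraries. For Myt1 they were Sox11 (r = 0.98), a factor of immature neurons, Nrxn3 (0.97), Top2b (0.97), Lhx6 (0.97), the LIM homeodomain factor of postmitotic MGE neurons, and Ccdc88a (0.97). For Myt1l they were Cd24a (r = 0.99), a surface protein of immature neurons, Afap1, Celf4, Rufy3 and Maco1, all with r of 0.99. The family members were less alike to each other, with r of 0.80 between Myt1 and Myt1l, 0.60 between St18 and Myt1 and 0.22 between St18 and Myt1l.

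**Figure D2:**
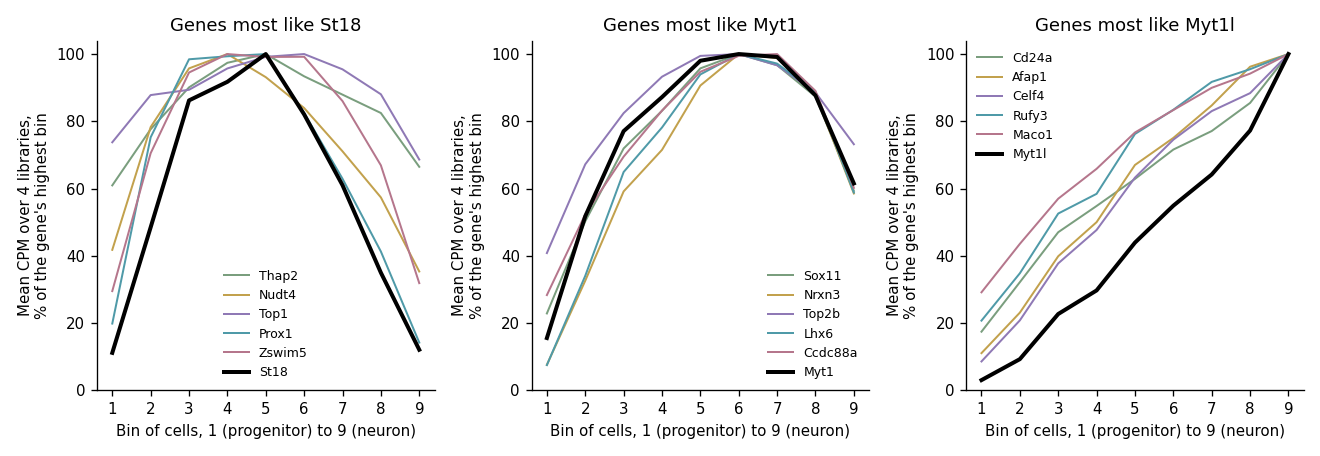
Mean level over 4 libraries in 9 bins from progenitor to neuron, as a percentage of each gene's highest bin, for each family member (black) and the 5 genes most alike to it (colours). Prox1 follows St18 down to bin 9, where it stands at 16.9 CPM, and Sox11 and Lhx6 follow the plateau of Myt1.

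Other genes of the pathways that the family is known to act in were read from lists of genes along the same ordering. Of all genes 78.4% were called between the progenitor and neuron segments, 5658 higher and 5492 lower of 14229, so that being called sets no list apart and the directions and medians are what is described. Of 30 lineage factors, 21 rose and 6 fell from the progenitor to the neuron segment, with a median log2 fold change of 1.19, among them Ebf1 (5.35), Gbx2 (4.53) and Gbx1 (3.89) upwards and Olig2 (-3.57) and Prox1 (-0.63) downwards. Of 17 Notch pathway genes, 16 fell and 1 rose between the same segments, with a median of -2.83 against 0.03 over all genes. Hes1 and Hes5, which count among the 16 and enter the median, were used to order the cells, so their fall is not a result. The receptor Notch1 had a log2 fold change of -2.83, the fringe glycosyltransferase Lfng -4.37 and the feedback inhibitor Nrarp -3.40, whereas Dner, a neuronal transmembrane ligand, rose by 1.95. The ligand Dll1 (-1.21) and Rbpj (-0.16), the DNA-binding partner of the receptor, fell less. Of 11 corepressor genes, 5 rose and 6 fell (median -0.40). Rest, a repressor of neuronal genes, had -1.44 and the deacetylase Hdac1 -1.10, while Kdm1a (0.47), a demethylase, and Sin3b (0.38), a scaffold of the Sin3 complex, rose. Of 17 neurogenic factors tested, 9 rose and 5 fell, among them Nhlh2 (2.96), the zinc finger repressors Scrt1 (1.84) and Scrt2 (1.60), and on the falling side Neurod4 (-6.35), Neurog2 (-2.94) and Insm1 (-1.66). All values are log2 fold changes that passed the threshold.

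Few single cells held UMIs of the whole family. In the progenitor segment 67.4% to 77.9% of thinned cells held no UMI of any of the 3 genes, in the middle segment 33.9% to 47.3% and in the neuron segment 28.0% to 35.1%. Cells with UMIs of all 3 genes made up 0.248% to 1.33%, 0.877% to 2.12% and 0.395% to 1.0% of the segments. The number of cells with both of a pair was set against the number that the genes' shares in each bin give if they are found independently. St18 and Myt1 were together in 31, 42, 28 and 19 cells of the progenitor segment, where their shares gave 20.5, 27.8, 15.5 and 10.3. The ratio was 1.51 to 1.84, and its exact Poisson 95% interval lay above 1 in 4 of 4 libraries.

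In the middle segment the ratio for St18 and Myt1 was 1.04 to 1.32 and in the neuron segment 1.01 to 1.25, with no interval above 1. Myt1 and Myt1l had 1.13 to 1.68 in the progenitor segment and 0.929 to 1.0 in the neuron segment, and St18 and Myt1l 1.19 to 1.83 and 0.849 to 1.07, so the ratios of all pairs were highest at the progenitor end. The intervals lay above 1 there in 2 of 4 libraries for each pair with Myt1l, and in the middle segment in 1 of 4 for Myt1 and Myt1l. The difference between the segments was not tested. The expected numbers take the cells of a bin as alike. From bin 1 to bin 3, however, the means went from 7.81 to 60.5 CPM for St18 and from 12.8 to 96.5 CPM for Myt1l. How far differences between cells of a bin enter the ratios was not tested.

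Which lineage the cells with a family member belonged to was examined by comparing, within each library, summed counts of thinned-positive cells (at least 1 UMI after thinning) with those of the remaining cells of the same segment. The list held 30 lineage factors of the MGE and its neighbours. Cells with an St18 UMI numbered 61 to 149 per library in the neuron segment, and 10 of the 30 factors were higher and 4 lower in them, where 4.79% of all genes tested were called. The median log2 fold change of the list was 0.19 against -0.01 over all genes. In the middle segment, with 180 to 243 cells, 8 were higher and 6 lower of 28 tested, against 3.18% of all genes.

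Prox1 and Nkx2-1 were among the factors higher in St18 cells. Prox1 was the highest, with UMIs in 30.4%, 31.1%, 18.5% and 28.2% of St18 cells of the neuron segment and in 11.2%, 12.2%, 7.02% and 9.66% of the others. These shares did not overlap, and the log2 fold change was 1.49 (SE 0.18, adjusted p = 2.38e-13). Nkx2-1, the factor that sets MGE identity and is kept by MGE projection neurons, was found in 63.8%, 57.4%, 63.0% and 61.7% against 39.0%, 34.9%, 37.6% and 43.4%. It was higher by 0.74 on the log2 scale (SE 0.09, adjusted p = 4.51e-12), and by 0.49 in the middle segment. Etv1 (0.89), Dlx1 (0.72) and Lhx6 (0.52) passed in both segments too. Lhx8, a partner of Lhx6 in cholinergic and pallidal lineages, passed in the neuron segment (0.47, adjusted p = 0.00042), but not in the middle segment (0.03). Nr2f2 was higher in St18 cells of the middle segment, by 0.57 to 0.81 over 9 alternatives, and passed in each. In the neuron segment it was found in 12.8% ± 4.52 of St18 cells against 12.2% ± 2.80 of the others (SD, n = 4).

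The 4 lower factors of the neuron segment were Isl1, Ebf1, Meis2 and Foxp2. Isl1, a LIM homeodomain factor of cholinergic and striatal projection neurons, was found in 7.25%, 4.92%, 6.17% and 4.03% of St18 cells of the neuron segment against 17.6%, 19.0%, 16.3% and 11.7% of the others, and its log2 fold change was -2.17 (SE 0.20, adjusted p = 1.37e-21). Ebf1, of striatal neurons, had -1.87 (SE 0.12), Meis2, of the lateral eminence, -1.39 (SE 0.12) and Foxp2 -1.12 (SE 0.25), the last being lost without WT replicate 1 (-0.67, adjusted p = 0.147). In all, Foxp2 was not called in 2 of 9 alternatives. Foxp1, also of striatal neurons, had -0.44 (adjusted p = 0.146) and 0.01 in the middle segment. In the middle segment Ebf1 (-2.12) and Meis2 (-0.55) were lower as well, and so were Maf (-0.66, adjusted p = 1.79e-14) and Mef2c (-0.58, adjusted p = 0.0172), both of cortical interneuron precursors. Sox6 (0.29, adjusted p = 0.000145) and Lhx6 (0.34), also of these precursors, were higher in the same cells. Mef2c was not called in 5 of 9 alternatives, among them those without null replicate 2 (-0.62), WT replicate 1 (-0.40) or WT replicate 2 (-0.44). Maf was found there in 27.2%, 29.2%, 20.3% and 17.7% of St18 cells against 34.0%, 44.0%, 32.1% and 24.6%. In the neuron segment Maf had -0.18 and Mef2c -0.58, and neither passed the threshold.

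St18 cells of the neuron segment were also less advanced in the ordering, with the neuron genes of the score lower in them (Stmn2 -0.47, Gap43 -1.06 and Mapt -0.99). With cells matched on the score within each library, Prox1 (1.54), Nkx2-1 (0.66), Dlx1 (0.63), Lhx6 (0.50), Lhx8 (0.49), Isl1 (-2.16), Ebf1 (-1.74), Meis2 (-1.55) and Foxp2 (-1.36) passed again, while Etv1 (0.56, adjusted p = 0.102), Sox6, Zeb2 and Dlx2 did not. Mapt was still lower after matching (-0.71). Over all genes the called number went from 490 to 100, and to 264 without WT replicate 2. Matching kept fewer cells without an St18 UMI, so calls lost with it do not show that a gene did not differ. Of 5 erythroid markers tested 4 were higher in St18 cells of the neuron segment, with a median of 1.88, while in the middle segment 6 of 6 erythroid and 7 of 7 microglial markers were lower, and their part in these results was not tested. Left out singly, no library ended the call for Prox1, Nkx2-1, Lhx6, Lhx8, Dlx1, Isl1, Ebf1 or Meis2 in the neuron segment.

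**Figure D3:**
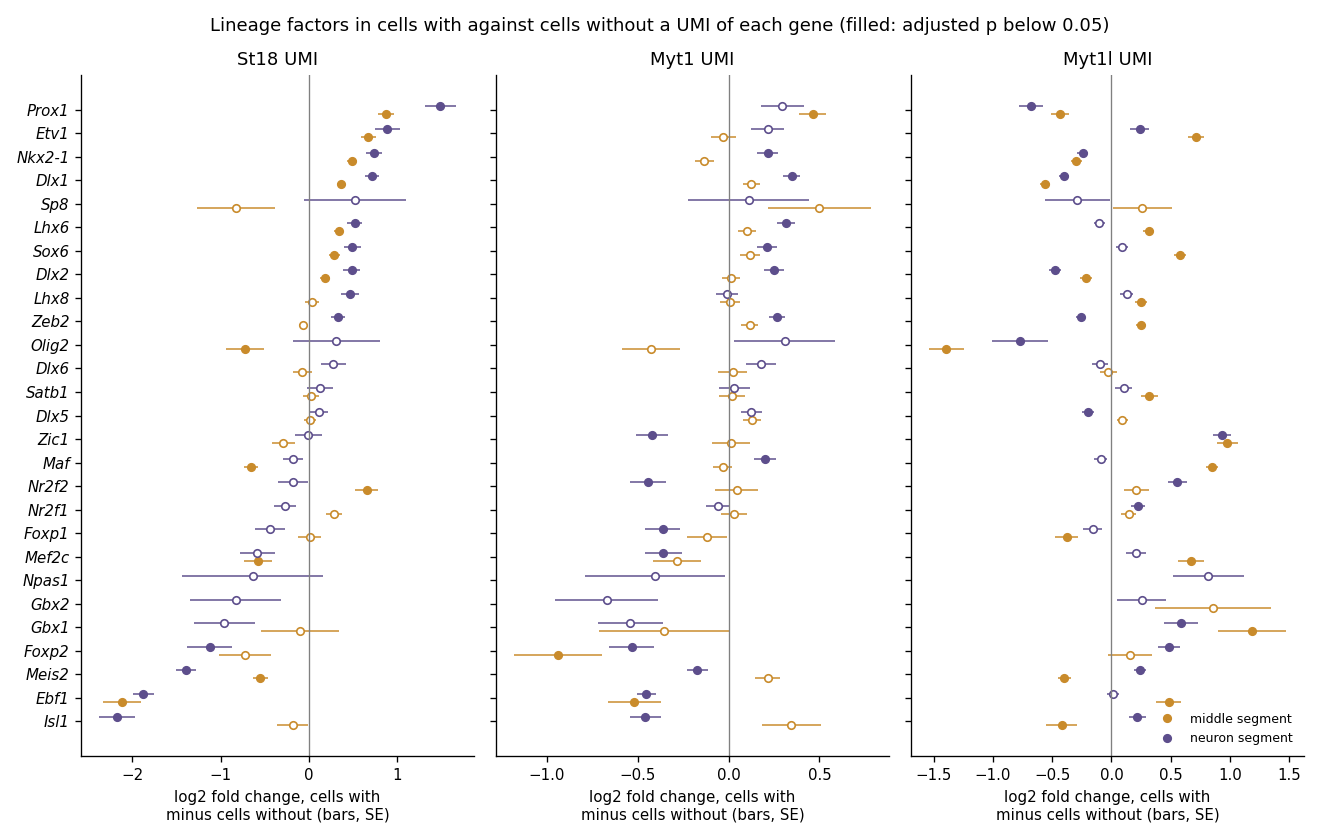
Log2 fold change (points, with SE) of lineage factors between cells with and cells without a UMI of St18, Myt1 or Myt1l, in the middle and neuron segment over 4 libraries. Filled points passed an adjusted p of 0.05. Prox1 (1.49) and Isl1 (-2.17) mark the ends for St18 in the neuron segment, while Myt1l has Prox1 at -0.68 and Zic1 at 0.93.

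Read the other way, the level of St18 in neuron-segment cells with a UMI of each factor ran from Prox1 cells to Isl1 cells. Prox1 cells held 35.0, 78.2, 70.6 and 95 CPM of St18, a mean of 69.7 ± 25.3 (SD, n = 4). Next came Olig2 cells (41.0 ± 30.1 CPM, from 24 to 57 cells per library), Etv1 cells (40.6 ± 13.5) and Nkx2-1 cells (38.8 ± 14.1), which do not differ beyond their spread. Lhx6 cells held 32.1 ± 14.8 CPM (16.6 to 46.1) and Lhx8 cells 27.6 ± 11.6 CPM (13.4 to 38.6). All cells of the segment held 25 ± 10.1 CPM (13.1 to 35.8). These SDs are between libraries that differ in their St18 level, and the groups were not tested within libraries here. At the low end stood Ebf1 cells (9.17 ± 7.22), Foxp2 cells (8.20 ± 5.99) and Isl1 cells, with 3.93, 8.80, 4.90 and 13.7 CPM, and in each library Prox1 cells were above Isl1 cells. These 3 means lay below the 13.8 to 32.6 CPM of droplets under 100 UMIs. They lay above the 0 to 3.64 CPM of erythroid cells by library and within the 0 to 11.8 CPM of microglia.

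**Figure D4:**
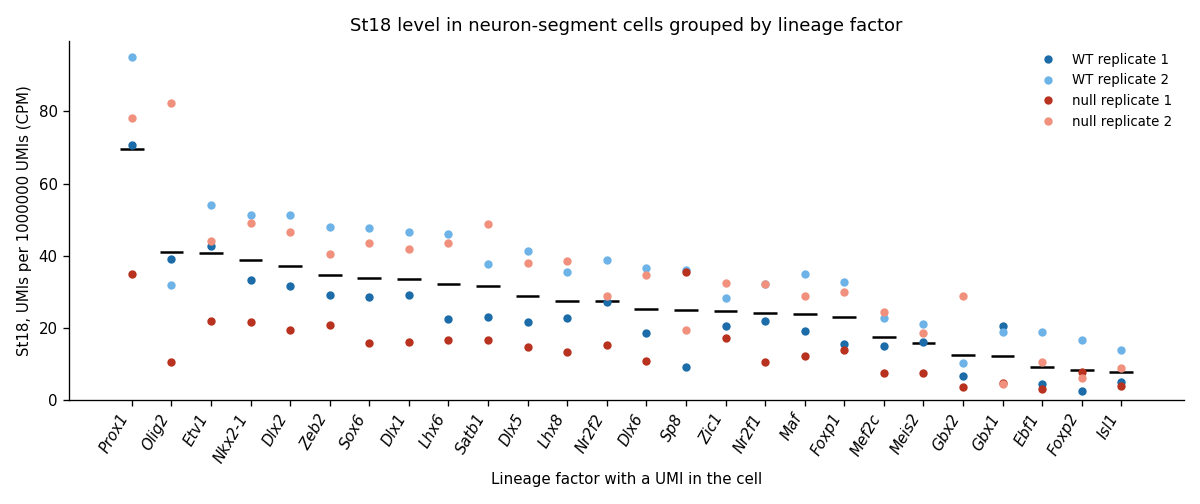
St18 level (CPM) in cells of the neuron segment that held a UMI of each lineage factor, for factors with at least 20 cells in each library, with a point per library and a bar for the mean. Cells with Prox1 are highest (mean 69.7 CPM) and cells with Isl1 lowest (mean 7.84 CPM), and null replicate 1 is the lowest library for most factors.

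Cells with Myt1, 243 to 429 per library in the neuron segment, were compared in the same way. Of the 30 lineage factors 9 were higher and 8 lower, against 5.63% of all genes, and in the middle segment 2 were higher and 2 lower of 28, against 2.88%. Dlx1, a homeodomain factor of GABAergic precursors, was higher in the neuron segment (0.35, SE 0.05, adjusted p = 2.6e-09), and so were Lhx6 (0.32) and Zeb2 (0.26). Foxp2 (-0.53), Isl1 (-0.46), Ebf1 (-0.45), Nr2f2 (-0.45) and Zic1 (-0.42) were lower. In cells matched on the score 1 was higher and 2 lower of 28 factors in the neuron segment, namely Dlx1 (0.21), Ebf1 (-0.24) and Foxp1 (-0.47), and the genes called went from 580 to 53. Without null replicate 1 they numbered 245, and Foxp2 (-0.42), Isl1 (-0.33) and Nr2f2 (-0.36) no longer passed, nor did Foxp2 without WT replicate 2 (-0.36). Matching kept fewer cells without a Myt1 UMI, so calls lost with it do not show that a factor did not differ. In the middle segment Prox1 was higher (0.46, SE 0.07, adjusted p = 1.6e-05), and passed when matched (0.36). Of erythroid markers 6 of 6 were lower in Myt1 cells of the middle segment and 4 of 5 in the neuron segment, and their part was not tested.

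Cells with Myt1l showed another set. In the middle segment, with 404 to 739 such cells per library, 13 of 29 factors were higher and 9 lower, where 31% of all genes were called, and in the neuron segment, with 602 to 1092 cells, 8 of 30 were higher and 9 lower, against 17.3%. Zic1, a zinc finger factor of septal and ventral cholinergic lineages, was found in 17%, 15.8%, 16.1% and 23.3% of Myt1l cells of the neuron segment against 10.4%, 12.4%, 9.10% and 15.7% of the others, and its log2 fold change was 0.93 (SE 0.07, adjusted p = 7.84e-17). In the middle segment it stood at 0.98. Nr2f2 (0.56), Gbx1 (0.59) and Foxp2 (0.48) were higher in the neuron segment. Gbx1 was not called in 2 of 9 alternatives, among them that without WT replicate 2 (0.34). Of erythroid markers 6 of 6 were lower in Myt1l cells of the middle segment and 4 of 5 in the neuron segment, and their part was not tested.

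Maf was higher by 0.85 in Myt1l cells of the middle segment, the opposite sign to Maf in St18 cells. Maf was found there in 43.6%, 51.0%, 45.1% and 34.4% of Myt1l cells against 28.2%, 34.0%, 22.9% and 18.0% of the others. Prox1 was lower in Myt1l cells of both segments (-0.43 and -0.68, adjusted p = 1.55e-05 and 1.99e-07), again the opposite sign to St18 cells, as were Nkx2-1 (-0.30 and -0.24) and Dlx1 (-0.56 and -0.40). Olig2 (-1.39), a gene of dividing progenitors, was the lowest in the middle segment. With cells matched on the score, 12 factors were higher and 9 lower of 28 in the middle segment, and 7 and 7 of 30 in the neuron segment. Zic1, Prox1, Nkx2-1 and Dlx1 were among them in both. Over all genes the called number went from 3338 to 2352 in the middle and from 1884 to 1308 in the neuron segment. The opposite signs for St18 and Myt1l come from separate comparisons, and the difference between them was not tested. In Myt1l cells of the neuron segment 3 of 3 neuron genes of the score were higher, and 2 of 3 when matched. Of progenitor markers outside the score 3 of 3 were lower there, also when matched. In the middle segment, when matched, 3 of 4 neuron markers outside the score were higher and 2 of 4 progenitor markers lower. In both segments 1 of 2 progenitor genes of the score was higher when matched. The part of these differences in the signs was not tested.

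The Notch, neurogenic and corepressor lists were read in the same cells, against the shares of all genes called that were given for each comparison. In Myt1l cells of the middle segment 6 of 13 Notch pathway genes were lower and 1 higher, where 31% of all genes were called, among them Notch1 (-1.17, SE 0.09), Dll1 (-0.91) and Dll3 (-0.77), and in the neuron segment 5 of 10 were lower and 1 higher, against 17.3%. Insm1, a zinc finger factor of basal progenitors, was lower by 1.16 and 0.67 on the log2 scale, and Dner was higher in both segments (0.41 and 0.36). In St18 cells of the neuron segment 4 of 9 Notch genes were higher and none lower, against 4.79%, with Notch1 at 1.14 (SE 0.21, adjusted p = 1.4e-05) and Dll3 at 1.01. Dll3 no longer passed without null replicate 1 (0.87) or null replicate 2 (0.78). In Myt1 cells of that segment 3 of 9 Notch genes were higher, against 5.63%, with Notch1 at 0.63. With cells matched on the score, 0 of 6 Notch genes were called for St18 and 0 of 9 for Myt1 there, and 3 of 10 were lower for Myt1l. Notch1 was then at 0.73 (SE 0.27, adjusted p = 0.164) in St18 cells and 0.44 (SE 0.16, adjusted p = 0.256) in Myt1 cells, the lowest values of the alternatives, and these lost calls on fewer cells do not show that it did not differ. Pou3f4, a POU factor of neural precursors, was higher in St18 cells (0.77) and Myt1 cells (0.47) of the neuron segment and lower in Myt1l cells (-0.33). Among 11 corepressor genes, Hmg20b was called in St18 cells (0.65), none in Myt1 cells and 3 in Myt1l cells of the neuron segment, Hmg20b, Hdac1 and Rcor2, all lower, against the 17.3% of all genes. Hmg20b in St18 cells was not called in 7 of 9 alternatives, among them those without null replicate 2 (0.60), WT replicate 1 (0.47) or WT replicate 2 (0.75). In Myt1l cells Hmg20b did not pass without null replicate 1 (-0.21), and of the fits with a library left out Hdac1 passed only in that without null replicate 2. Over all 9 alternatives there, Hmg20b was not called in 2 and Hdac1 in 5.

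Between the family members, St18 was higher in Myt1 cells of the neuron segment (0.60, SE 0.16, adjusted p = 0.00803) and in Myt1l cells of the middle segment (0.25, SE 0.10, adjusted p = 0.0459), and Myt1 was lower in Myt1l cells of the neuron segment (-0.23, SE 0.08, adjusted p = 0.0325). With cells matched on the score these were 0.52, 0.25 and -0.14, and none passed (adjusted p = 0.306, 0.101 and 0.311). Each kept its sign in all alternatives run. The first no longer passed without null replicate 1 (0.55) or null replicate 2 (0.56), the second without null replicate 2 (0.28) or WT replicate 2 (0.11), and the last without null replicate 1 (-0.23), WT replicate 1 (-0.19) or WT replicate 2 (-0.23). Over all alternatives run, the first was not called in 3 of 8, the second in 5 of 9 and the last in 7 of 9.

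Whether the family's own levels differ by genotype was asked by setting null against WT within each segment. None of the 3 genes was called in any segment, where the comparison called 0.00725% of all genes in the progenitor, 0.336% in the middle and 0.101% in the neuron segment (1, 44 and 13 genes, with 2371, 2220 and 2081 at an unadjusted p under 0.05). St18 stood at -0.16 (SE 0.44), -0.40 (SE 0.35) and -0.58 (SE 0.35) on the log2 scale in the 3 segments, and the libraries labelled null lay on both sides of the WT libraries in the progenitor and middle segments. Null replicate 1 was below both WT libraries in each segment and null replicate 2 above both in the progenitor and middle segment, at 51.3 against 29.8 and 33.1 CPM and at 87.8 against 59.8 and 79 CPM.

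Without null replicate 2, St18 was lower in null by a log2 fold change of -1.20, -1.26 and -1.22 (adjusted p = 0.00583, 2.5e-22 and 0.00164), and without null replicate 1 it was 0.45 (adjusted p = 0.0283), 0.14 and -0.09. In the neuron segment it was -0.89 (adjusted p = 0.0241) without WT replicate 1 and -0.12 without WT replicate 2. In these fits the lone library of a genotype is taken to vary like those of the other. The interaction of genotype with the change from the progenitor to the neuron segment was -0.27 (SE 0.19, adjusted p = 0.91) for St18, -0.11 (SE 0.10) for Myt1 and -0.09 (SE 0.09) for Myt1l, where 0.0354% of all genes were called. Without null replicate 2 it was -0.0011, -0.22 and -0.047.

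Myt1 stood above WT in every segment, with 0.38 (SE 0.13), 0.25 (SE 0.13) and 0.25 (SE 0.13), and its null libraries did not overlap with the WT libraries in CPM, but none of these passed (adjusted p = 0.222, 0.358 and 0.386). Without null replicate 2 Myt1 was at 0.33, 0.19 and 0.16, and without null replicate 1 it was at 0.31 in the middle and 0.35 in the neuron segment. Myt1l stood at 0.21 (SE 0.16), 0.16 (SE 0.17) and 0.08 (SE 0.12), and its direction depended on null replicate 2, without which it was -0.02, -0.09 and -0.04. Without null replicate 1 it was 0.41, 0.38 and 0.20. Erythroid markers had a sum of 91.9 to 97.8 CPM in the neuron segment of null and 281 to 466 CPM in WT, and 4 of the 5 tested were lower in null. Markers of pallial neurons had sums of 9.65 to 46.7 against 2.48 to 9.53 CPM, and of the 3 tested none was called. The part of either list in these values was not tested.

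**Figure D5:**
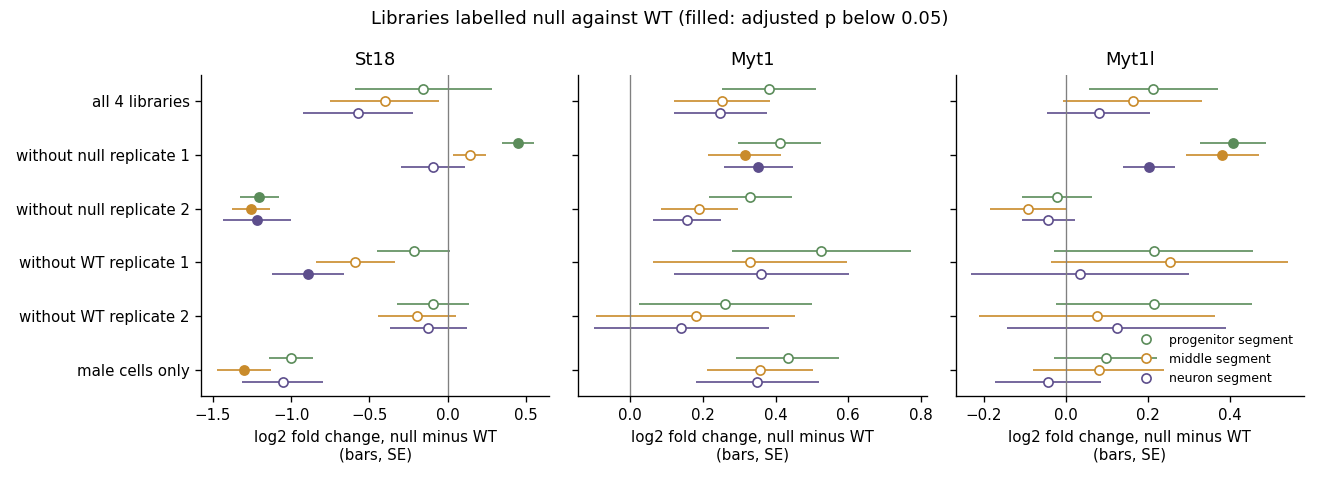
Log2 fold change of null against WT (points, with SE) for each family member in the 3 segments of the ordering, with all 4 libraries, with each library left out and with male cells alone. Filled points passed an adjusted p of 0.05. With all libraries none is filled, and St18 lies at -1.20 to -1.26 without null replicate 2. Fits with a library left out rest on a lone library of a genotype, so their filled points are not read as calls.

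Sex classes of cells, from Xist and 4 Y-linked genes, were used to divide the libraries further. No WT cell was classed as female, against 31.5% and 60.7% of the null cells, so that sex and genotype cannot be fully told apart. Female cells of the middle segment of null replicate 2 held 115 CPM of St18 and male cells 34.5 CPM, and the ratio was 3.08 to 3.64 in the 3 segments, whereas in null replicate 1 it was 0.613 to 0.896. Myt1 had ratios of 0.843 to 1.0 in null replicate 2 and 0.874 to 1.05 in null replicate 1, and Myt1l 1.23 to 1.39 and 0.888 to 0.969. These are values of single libraries, with no test. In male cells alone St18 stood at -1.0, -1.30 and -1.05 between null and WT on the log2 scale, of which the middle segment passed (adjusted p = 0.0216).

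Of the lists, no Notch pathway, corepressor or neurogenic gene was called between null and WT in any segment, and of the 30 lineage factors Ebf1 alone was, higher in null in the middle segment (1.15, SE 0.13, adjusted p = 0.00785). The call for Ebf1 ended when the segments were cut within each library (0.048, adjusted p = 0.91) or made with other ordering markers (0.032, adjusted p = 0.927), and in male cells alone it was 1.0 (adjusted p = 0.0765). Without null replicate 2 it was 1.15. In that segment Ebf1 was also the lowest factor in cells with St18.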

How the data were processed

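Droplet single-cell RNA sequencing (10x Genomics) was performed on MGE of e14.5 embryos. The submitters' processing notes name Cell Ranger 5.0.1 and GRCm38, while the file headers name version 4. The deposited values are UMI counts, unfiltered for cells and not normalized by the authors, in a matrix per library. Totals were 92984713, 89094919, 72640295 and 70991150 UMIs, of which the cells used held 40.2% to 59.7%. Of the gene identifiers, 99.6% were found in GENCODE M21, used for positions. No replicate numbers are in the labels, and replicates were numbered by order. Nothing says that the libraries of a genotype came from separate litters, so p-values refer to the spread between these libraries alone. Where library was a block, this spread is that of the change from library to library.

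Cells with at least 3000 UMIs and at most 10% mitochondrial UMIs were kept. The score was the difference of log2(1 + UMIs per 10000) of the marker sums, and 685 cells without a marker UMI scored 0, in the progenitor segment. Scrublet (scanpy 1.11.5) scored doublets. Its own threshold marked 7 cells and was not used, so all cells were kept and the highest scores (120 to 352 per library) were left out in an alternative. Counts were summed per library and segment, which gave 998 to 2421 cells and 8744769 to 24611546 UMIs per sum. Tests used edgeR 4.0.16 (R 4.3.3) after TMM scaling and filterByExpr, by quasi-likelihood F-test, with Benjamini-Hochberg adjusted p-values over all genes tested, two-sided, at 0.05, with library as a block except between genotypes. SE was taken from the log2 fold change and its F. CPM values carry no TMM factor. Cells with and without a UMI were defined after thinning, their thinned counts were summed, and the member itself was left out. Intervals are exact and two-sided (Poisson or Clopper-Pearson, 95%), also for 0 counts. Scripts were tested on simulated data. Alternatives were RLE scaling, library totals, no filter, DESeq2 1.42.0, each library left out, male cells, doublet scores, non-neural cells left out, at least 5000 UMIs, thinning, segments cut within libraries, 8 other markers and matching on the score. Tables and plots were made in Python 3.11.15 (pandas 2.3.3, numpy 2.4.6, matplotlib 3.10.9, scipy 1.17.1).

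The family members, gene lists, ordering and rules were chosen with earlier results of these data known. Named were the 3 genes, the 5 most alike to each, of each list up to 3 called genes per direction with the largest change between the ends of the ordering, up to 5 lineage factors per direction in cells with a member, and list genes called between genotypes. Further genes of the lists named as values (Notch1, Dll1, Dll3, Rbpj, Insm1, Pou3f4, Hmg20b, Hdac1, Rcor2 and others) were chosen after their values were seen. Some genes of the lists count in the list totals and are not reported here by name.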

Additional observations from a re-analysis of the deposited data

How the results depend on the processing

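Between segments, 134 of the 135 values of St18, Myt1 and Myt1l under the alternatives kept their direction and passed, and the exception was St18 between the neuron and progenitor segments with other ordering markers, at a log2 fold change of 0.27. Between null and WT, with the values of the interaction counted in, 147 values kept direction and side, 21 turned and 11 came to pass. The causes were not tested beyond what each alternative leaves out. With each library left out in turn, St18 ranged from -1.20 to 0.45 in the progenitor, -1.26 to 0.14 in the middle and -1.22 to -0.093 in the neuron segment, Myt1 from 0.18 to 0.33 in the middle and 0.14 to 0.36 in the neuron segment, and Myt1l from -0.022 to 0.41, -0.092 to 0.38 and -0.043 to 0.20. The interaction for St18 ranged from -0.57 to 0.083.

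With other ordering markers Myt1 turned to -0.019 in the progenitor segment, and Myt1l was at -0.13, -0.19 and -0.021 in the successive segments. With segments cut within each library Myt1l was at -0.20, -0.17 and -0.048. In male cells St18 passed in the middle segment at -1.30 and Myt1l turned to -0.044 in the neuron segment. Scaled by library totals, which moved the median of all genes by 0.19, 0.16 and 0.13, St18 was at 0.069 in the progenitor segment. With no filter St18 passed in the neuron segment at -0.58 (adjusted p = 0.0119). The interaction turned with segments cut within each library, to 0.52 for St18, 0.18 for Myt1 and 0.19 for Myt1l, and with other ordering markers, to 0.45, 0.29 and 0.062.

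Of the other list genes called between segments or genotypes, 2712 values kept direction and side and 53 no longer passed. Mfng between the middle and progenitor segments turned to -0.041 when thinned, and Etv1 between the neuron and middle segments to 0.19 with other ordering markers. Ebf1 between null and WT in the middle segment ranged from 0.032 to 1.32. Among cells with and without a family member, 1060 values of list genes and members kept direction and side, 219 no longer passed and 1 turned, and of these changes 54 came with matching on the score and 45 with DESeq2. The value that turned was Maf, which in Myt1 cells of the neuron segment went to -0.034 when matched. The number of genes called varied widely between null and WT, from 1 to 2959 in the progenitor, 21 to 4008 in the middle and 7 to 3483 in the neuron segment, each highest without null replicate 1, with 906, 756 and 712 when no filter was used, 398, 250 and 245 with DESeq2, and 0 to 209 for the interaction. For cells with a member it ranged from 111 to 346 and 100 to 496 for St18, 70 to 333 and 53 to 586 for Myt1, and 1534 to 3423 and 598 to 1960 for Myt1l in the middle and neuron segments. Null and WT libraries could not be paired because the labels carry no replicate numbers. At both ends of the ordering St18 lay below the level of droplets under 100 UMIs, and so did Myt1 and Myt1l in bin 1. Measured in cells, the background of St18 was lower, at 0 to 3.64 CPM in erythroid cells and 0 to 11.8 CPM in microglia by library.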
